A study of Homo sapiens with 51 samples.

Results

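The regions described here are the stretches of open chromatin that closed in wild-type human embryonic stem cells between day 1 and day 5 of BMP4 treatment. They were chosen by their read counts in the WT libraries of those days: a region was kept when its mean on day 1 was at least 4 CPM (the count in a region divided by the total of its library and scaled to 1000000 counts) and its mean on day 5 was at most 50% of that. Of 142087 regions in the BMP4 table, 7713 (5.43%) met the rule. They made up 8.32% of the 92655 regions that reached 4 CPM on day 1 in WT, and the other 84942 of these are called the other open regions below. Since WT days 1 and 5 chose the members, the fall in WT is a description, and tests were made only in libraries that the rule did not use.

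The assay was ATAC-seq, in which a transposase cuts accessible DNA and the number of fragments over a region measures how open it is. All cells were H1, a human embryonic stem cell line, in 3 versions that the labels call KO, ΔATG (written DATG here) and WT. Which gene was edited, what ΔATG removes and whether each version is 1 clone are not stated in the labels. KO, DATG and WT cells were each sampled on days 1, 2, 3, 4 and 5 of BMP4, the treatment the labels tie to mesoderm, with 2 libraries (a and b) per line and day, and the labels do not say whether day 1 cells were taken before or after BMP4 was added. Untreated cells of all 3 lines (day 0) and WT cells under SMADi, the treatment tied to neuroectoderm, on days 1, 4 and 5 were used for comparison. The labels do not say that a and b were separate cultures, so every p-value measures only the spread between these libraries.

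Chromatin at enhancers opens when sequence-specific transcription factors hold nucleosomes away and closes when those factors are lost, so the set of open distal regions is a signature of cell identity. In human pluripotent cells many such regions are held by POU5F1 and SOX2 together with other pluripotency factors, and FGF and Nodal/Activin signalling maintains that state. BMP4 signals through SMAD1, SMAD5 and SMAD9 and moves these cells out of pluripotency, towards mesoderm or extra-embryonic fates depending on the other signals present.

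The 30 BMP4 libraries held between 4019778 counts (DATG day 5 b) and 13850448 counts (WT day 3 a), so that 4 CPM stood for 16.1 to 55.4 counts. CPM divides by the whole library, and on that scale the median region of the table also moved: on day 5 it stood at 95.9% of day 1 in KO, 94.5% in DATG and 89.0% in WT. With CPM computed on TMM-scaled library sizes, which remove that shift, 4737 regions met the same rule. Unless another source is named, log2 fold changes and adjusted p-values below come from edgeR's quasi-likelihood test on TMM-scaled counts, with Benjamini-Hochberg adjustment over all 142083 BMP4 regions tested and a threshold of 0.05. The day 0 and SMADi tables were fitted apart, over 100582 and 162313 regions. A lower count in a bulk library cannot be told apart as fewer cells with the region open or as less opening per cell.

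The members held a falling share of each library on every day of WT differentiation. In WT they took 4.94 and 4.89% of the counts of the 2 libraries on day 1, 3.27 and 3.22% on day 2, 2.52 and 2.58% on day 3, 2.44 and 2.52% on day 4 and 2.00 and 1.99% on day 5. In KO the shares were 4.63 and 4.60%, 3.42 and 3.52%, 2.88 and 2.88%, 2.98 and 2.99%, and 2.84 and 2.72% over the same days. In DATG they were 4.72 and 4.69%, 3.34 and 3.53%, 3.06 and 2.96%, 2.72 and 2.88%, and 2.57 and 2.70%. From day 2 on, both KO and both DATG libraries lay above both WT libraries on each day, while on day 1 they lay below them. The rule used WT days 1 and 5, so only the order on days 2 to 4 comes from libraries that it did not use. Choosing regions that end low in WT can still favour low WT levels on those days. The differences from WT were smaller for regions chosen in KO or DATG, as given below. KO shares stayed between 2.72 and 2.99% from day 3 on. DATG ended between KO and WT on day 5, when WT was low by the rule.

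**Figure D1:**
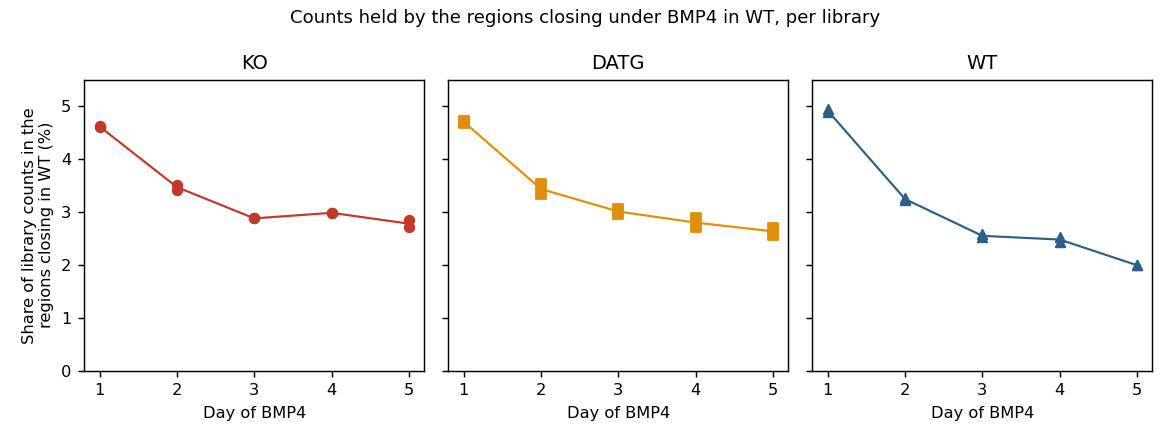
Share of all counts in a library (percent, vertical axis) that fell in the 7713 regions closing in WT, by day of BMP4, for KO, DATG and WT; points are single libraries and lines join the means of 2 libraries. WT goes down to 2.00 and 1.99% on day 5, while KO ends at 2.84 and 2.72% and DATG at 2.57 and 2.70%.

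Closing in WT was spread over the days of treatment. The closing day of a region was taken as the first day from which its WT mean stayed at or under 50% of day 1. By that measure 983 members (12.7%) closed by day 2, a further 1502 (19.5%) on day 3, 1317 (17.1%) on day 4 and 3911 (50.7%) on day 5 only. Of the last class, 1215 (31.1%) had been at or under 50% on day 3 and were above it on day 4. Every member met the limit on day 5 by the rule, which chose for high WT levels on day 1 and low ones on day 5. The size of the day 5 class thus depends partly on that choice, and is not a free measure of when regions closed. The median member stood at 64.5% of day 1 on day 2, 50.7% on day 3, 50.3% on day 4 and 42.6% on day 5. The closing day depends on its definition: when later days are ignored, 50.7% of the members had reached 50% by day 3, against 32.2% under the definition used. With the midpoint between each region's own day 1 and day 5 levels as the limit, 59.4% passed it by day 2, 86.2% by day 3 and 6.56% on day 5 only.

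The steps between the middle days could be tested in libraries that the rule did not use. Choosing regions that end low in WT can still favour a fall between those days. From day 2 to day 3 in WT, 282 members fell and 0 rose, with a median log2 change of -0.32, where 0.553% of all regions fell and 2.24% rose. This count rested on single libraries: it was 49 without WT day 2 a, 121 without WT day 2 b and 41 without WT day 3 a. From day 3 to day 4 the median change was 0.01, with 24 members higher and 70 lower, where 0.48% of all regions were higher and 0.695% lower. That count also moved with each library, to 39 without WT day 3 a, 26 without WT day 3 b, 16 without WT day 4 a and 22 without WT day 4 b. At the edges of the rule, the nearest regions stood at 4.001 CPM inside and 3.999 CPM outside on day 1, and at 49.998% inside and 50.001% outside on day 5.

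Most members were distal. Of the 7393 members on chromosomes with a table of start sites, 702 (9.5%) lay within 1 kb of an annotated transcription start, against 33.6% of the other open regions and 26.9% of all regions, and the median distance to a start was 21751, 7213 and 10961 bp in the same order. Proximity by closing day ran from 5.96% of the members closing on day 3 to 11.5% of those closing on day 4. Of the members, 1226 (15.9%) had another member within 5 kb, and 3886 (50.4%) lay inside a protein-coding gene. Neither share was computed for the other open regions, so no clustering or lack of it is read from them. By the nearest protein-coding gene with an end within 50 kb, 5629 members were linked to 4150 genes. The gene with the most was SSTR1, a somatostatin receptor, with 10 members, followed by HELT and OR1F1 with 9 each and BDNF, a neurotrophin, with 8.

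Among the members with the highest WT level on day 1 that had closed by day 2 was a region inside LARP7 (chr4:112646033-112646233, GRCh38). It lies 1641 bp from MIR367 and 1771 to 2252 bp from the hairpins of MIR302D, MIR302A, MIR302C and MIR302B, the cluster of microRNAs that is among the most abundant in human embryonic stem cells. The mature 3p strands are shown, from RefSeq GRCh38.p14 (minus strand, 5′ to 3′), because the 4 miR-302 members share 1 seed; capitals mark the seed, bases 2 to 8.
hsa-miR-302a-3p: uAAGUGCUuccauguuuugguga
hsa-miR-302b-3p: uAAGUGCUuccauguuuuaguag
hsa-miR-302c-3p: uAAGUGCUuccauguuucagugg
hsa-miR-302d-3p: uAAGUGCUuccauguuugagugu
hsa-miR-367-3p: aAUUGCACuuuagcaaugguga
No microRNA was measured here. The region held 19.62 and 16.41 CPM in KO on day 1, 7.36 and 6.94 on day 2, 4.66 and 6.28 on day 3, 7.47 and 10.23 on day 4 and 7.20 and 6.12 on day 5. In DATG it held 22.07 and 17.48, 7.58 and 6.74, 4.67 and 5.99, 6.68 and 7.82, and 4.41 and 4.98 CPM, and in WT 18.93 and 17.40, 5.76 and 2.75, 4.55 and 2.84, 5.64 and 7.14, and 4.08 and 4.59 CPM. It was low from day 2 on in every line, with a higher mean on day 4 than on day 3, and fell between days 1 and 5 in KO (log2 -1.38 ± 0.20 SE, edgeR adjusted p = 3.73e-08) and in DATG (log2 -2.01 ± 0.22 SE, edgeR adjusted p = 5.33e-12). Over days 2 to 4 KO was higher than WT there (log2 0.54 ± 0.14 SE, edgeR adjusted p = 0.00401), a call lost without WT day 2 b (log2 0.41), while the DATG difference did not pass (log2 0.44 ± 0.14 SE, edgeR adjusted p = 0.0522). Across all members, 1.3% lay within 5 kb of a microRNA hairpin, against 1.7% of all regions.

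Of the 230 members that overlapped an annotated start window (250 bases before to 50 after the start), 3 belonged to the regions named by the rule for naming. They are shown with RefSeq GRCh38.p14 sequence on the gene's strand, 5′ to 3′, because they are the promoters at which closing was read directly: DPPA4, a chromatin factor of pluripotent cells (chr3:109337497-109337796, minus strand), FEZF1, a forebrain transcription factor (chr7:122304462-122304761, minus strand), and HEY2-AS1, antisense to the Notch target HEY2 (chr6:125745573-125745872, minus strand). Capitals mark the motifs found.
DPPA4: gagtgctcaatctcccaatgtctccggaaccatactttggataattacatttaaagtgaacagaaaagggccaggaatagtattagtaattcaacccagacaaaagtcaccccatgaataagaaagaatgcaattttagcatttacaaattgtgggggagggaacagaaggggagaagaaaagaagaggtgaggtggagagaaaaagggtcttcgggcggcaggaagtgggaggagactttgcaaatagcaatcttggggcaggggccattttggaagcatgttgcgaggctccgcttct
FEZF1: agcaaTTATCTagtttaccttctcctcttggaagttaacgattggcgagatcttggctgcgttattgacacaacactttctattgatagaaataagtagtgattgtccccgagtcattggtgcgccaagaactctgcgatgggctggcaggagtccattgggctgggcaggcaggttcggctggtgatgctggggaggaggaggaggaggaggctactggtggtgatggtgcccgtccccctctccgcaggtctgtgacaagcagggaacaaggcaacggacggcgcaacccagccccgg
HEY2-AS1: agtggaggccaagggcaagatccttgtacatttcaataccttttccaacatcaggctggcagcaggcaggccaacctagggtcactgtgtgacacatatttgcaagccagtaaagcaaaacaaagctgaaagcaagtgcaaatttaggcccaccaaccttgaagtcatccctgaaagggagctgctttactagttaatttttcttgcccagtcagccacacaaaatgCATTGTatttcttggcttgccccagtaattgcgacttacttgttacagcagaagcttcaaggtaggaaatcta
The letters searched, on both strands, were TTTGCAT (part of the octamer that POU factors bind), ACAATG (bound by SOX factors), GGAATG (bound by TEAD factors), AGATAA (bound by the zinc finger factors of the GATA family), TGANTCA (bound by AP-1 factors) and CACGTG (the E-box of MYC and related factors). FEZF1's window held AGATAA and that of HEY2-AS1 held ACAATG, and none of the 6 was found in that of DPPA4. The member covered only 114 bp of the FEZF1 window and 86 bp of the HEY2-AS1 window. Both motifs lay outside that part, so neither was in the region that closed. The shares below are counted over whole windows. TTTGCAT occurred in 8.13% of the 246 start windows that overlapped a member and in 4.46% of all 35116 windows. ACAATG occurred in 6.50 and 10.8%, GGAATG in 13.8 and 14.0%, AGATAA in 7.32 and 10.3%, TGANTCA in 4.47 and 7.71% and CACGTG in 7.72 and 7.26% of the same 2 sets. These are counts of letters, not of bound sites.

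The DPPA4 start fell in KO between days 1 and 5 (log2 -0.91 ± 0.23 SE, edgeR adjusted p = 0.00232), to 4.67 and 7.03 CPM on day 5, against 12.87 and 9.95 CPM on day 1. In DATG it stood at 5.79 and 7.96 CPM on day 5 and 7.46 and 12.27 CPM on day 1, a difference that did not pass (log2 -0.52 ± 0.24 SE, edgeR adjusted p = 0.112). The FEZF1 start stood at 9.97 and 7.42 CPM on day 5 and 6.28 and 8.12 CPM on day 1 in KO, at 4.00 and 7.96 CPM on day 5 and 8.04 and 7.94 CPM on day 1 in DATG, and neither difference passed (edgeR adjusted p = 0.296 and 0.182). In WT the same start held 4.95 and 3.28 CPM on day 5 and 8.44 and 9.59 CPM on day 1. KO was higher than WT at FEZF1 over days 2 to 4 (log2 0.52 ± 0.15 SE, edgeR adjusted p = 0.00896). The HEY2-AS1 start fell in both KO (log2 -0.66 ± 0.21 SE, edgeR adjusted p = 0.015) and DATG (log2 -0.91 ± 0.21 SE, edgeR adjusted p = 0.000513). The KO calls rested on single libraries: DPPA4 did not pass without KO day 1 a (log2 -0.71) or KO day 5 a (log2 -0.66), nor HEY2-AS1 without KO day 1 a (log2 -0.61) or KO day 5 b (log2 -0.55). By DESeq2 neither the FEZF1 difference (log2 0.53) nor the HEY2-AS1 fall in KO (log2 -0.66) passed.

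Many of the members also closed in KO and in DATG, each tested in its own libraries. Between day 1 and day 5 of the same line, 3380 of 7713 members (43.8%) fell and 7 rose in KO, where 8.32% of all regions tested fell and 11.2% rose. That background depends on scaling: by total counts, 13557 regions were higher and 14444 lower on day 5 in KO, against 15887 and 11822 on the TMM scale. In DATG, 3755 members (48.7%) fell and 3 rose, where 8.27% of all regions fell and 12.9% rose. The median log2 change of the members was -0.67 in KO and -0.77 in DATG. In both lines together 2461 members (31.9%) fell, a further 919 passed in KO only and 1294 in DATG only, and 3039 (39.4%) passed in neither. Passing in one line and not in the other does not show a difference between them, which is tested below. The counts fell by over 1.5 times when some libraries were left out: members called in KO numbered 2015 without KO day 1 a, 2236 without KO day 1 b and 2123 without KO day 5 b, and those called in DATG numbered 1724 without DATG day 5 a.

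The earlier a region closed in WT, the more often it fell in the mutant lines. Of the members closing by day 2 in WT, 72.7% fell in KO and 76.0% in DATG, with median log2 changes of -1.16 and -1.28. The shares were 58.5 and 63.9% for closing on day 3, 41.5 and 47.5% for day 4, and 31.7 and 36.4% for day 5, where the median changes were -0.52 and -0.62. A log2 change above 0 in both lines was found at 0 of the 983 members closing by day 2 and at 93 (2.38%) of the 3911 closing on day 5. The WT medians of these classes, as plain log2 ratios of mean CPM and so not on the TMM scale of the mutant values, were -1.37, -1.20, -1.09 and -1.02, and the classes thus also differed in the depth of the WT fall.

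**Figure D2:**
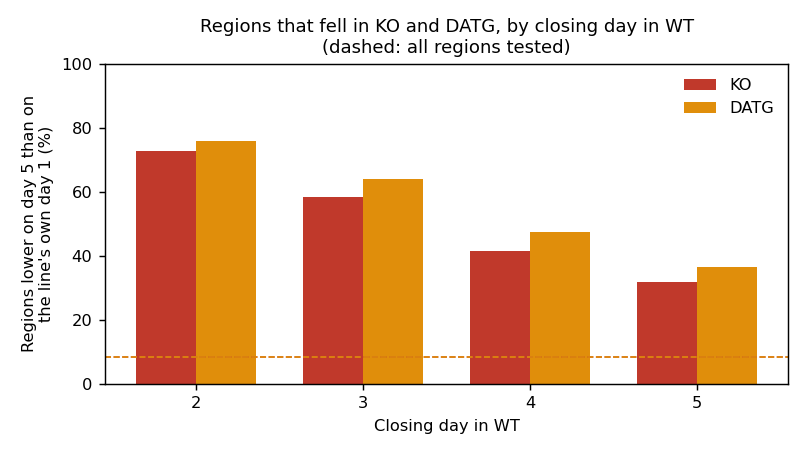
Percent of members that fell between day 1 and day 5 of the same line (edgeR, adjusted over all regions) in KO and DATG, by the closing day in WT; dashed lines give the share of all regions tested. The bars go down with later closing, from 72.7 and 76.0% for day 2 to 31.7 and 36.4% for day 5, and all stand above the 8.32 and 8.27% of all regions.

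The depth of the fall was smaller in KO and DATG than in WT, where the rule itself asked for a fall to 50%. The median member stood on day 5 at 60.2% of its day 1 level in KO, 56.1% in DATG and 42.6% in WT, and 2351 members (30.5%) in KO and 2817 (36.5%) in DATG were at or under 50%. A level of 4 CPM or more on day 5 was still held by 33.1 and 30.3% of the members in the 2 KO libraries, 25.3 and 28.7% in the DATG libraries and 11.7 and 11.1% in the WT libraries. Among the members closing by day 2, the median on day 5 was 42.7% of day 1 in KO, 39.1% in DATG and 32.9% in WT. Among those closing on day 5 it was 66.9, 62.0 and 45.0%. In KO the median member stood at 60.8% on day 3, 65.0% on day 4 and 60.2% on day 5, while in DATG it went through 63.1, 59.5 and 56.1%. The other open regions stood on day 5 at 94.5% of day 1 in KO, 93.1% in DATG and 87.6% in WT.

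**Figure D3:**
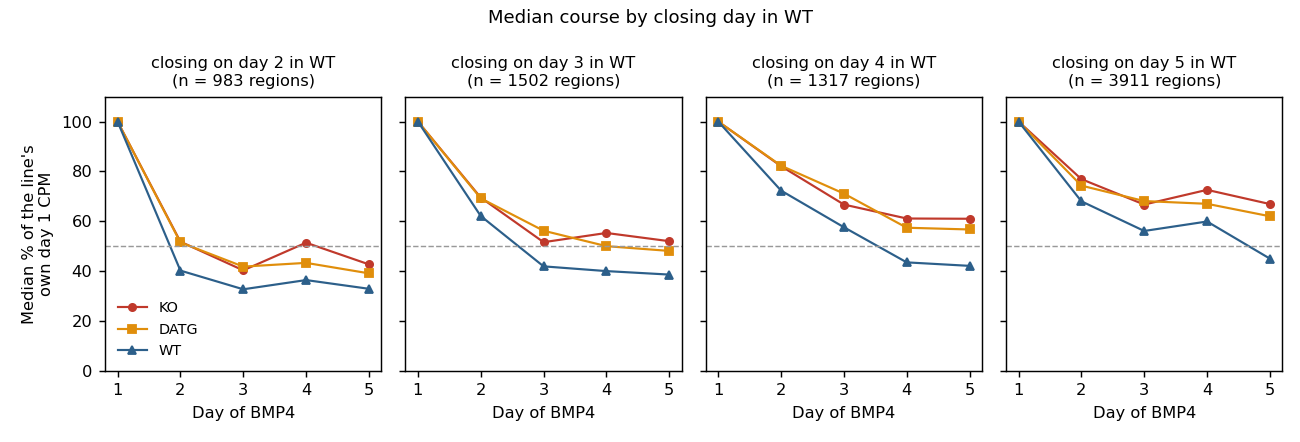
Median level of the members as a percent of the same line's day 1 CPM (vertical axis) over the days of BMP4, for KO, DATG and WT, in 4 panels by closing day in WT; the dashed line is 50%, and the WT lines follow from how the classes were made. KO and DATG reach 51.8 and 51.5% on day 2 in the regions closing by day 2 and stay above 50% throughout in those closing on day 4 or day 5.

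How much of that gap comes with choosing on the WT libraries was read by choosing regions in 1 library of each day and reading them in the others. The rule applied to replicate a of WT alone kept 11387 regions, and 39.0% of these were at or under 50% in WT replicate b, against 26.8 and 27.8% in the 2 KO replicates and 34.4 and 29.6% in DATG. The rule applied to replicate b kept 9285 regions, of which 46.1% were at or under 50% in WT replicate a, 25.8 and 27.4% in KO and 33.0 and 33.4% in DATG. In both cases the WT library that had not chosen the regions showed the higher share, KO the lowest, and DATG lay between them. These shares were read on plain CPM only.

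When the regions were chosen in the mutant lines, KO no longer stood below WT by as much. Regions chosen in KO a or KO b were at or under 50% in 39.8 and 38.4% of cases in the other KO replicate, in 41.5 and 37.6% or 43.0 and 35.7% in DATG, and in 45.7 and 37.2% or 46.3 and 37.7% in WT. Regions chosen in DATG a or DATG b gave 30.8 and 33.5% or 28.5 and 28.6% in KO, 32.8 or 32.4% in the other DATG replicate, and 43.9 and 36.9% or 37.9 and 35.9% in WT. WT replicate a gave a higher share than WT replicate b in each of these readings. Thus on plain CPM KO and WT overlapped for regions chosen in KO, and KO lay below WT for regions chosen in DATG. On that scale the median of all regions also fell further in WT, to 89.0% of day 1 against 95.9% in KO. With TMM-scaled CPM, regions chosen by the DATG means had median log2 changes of -0.726 in KO and -0.775 in WT. Those chosen by the KO means had -0.789 in DATG and -0.757 in WT. Applied to the means, the rule kept 4781 regions in KO and 5619 in DATG, or 3.36 and 3.95% of all regions. The regions kept in both KO and WT numbered 2047, or 42.8% of the KO set and 26.5% of the WT set, and those kept in both DATG and WT numbered 2493, or 44.4% of the DATG set and 32.3% of the WT set. Of the WT set, 4462 (57.9%) were kept in neither mutant line. KO and DATG shared 1974 regions with each other, or 41.3% of the KO set and 35.1% of the DATG set. Low overlap was thus not particular to the WT set, and no closing special to WT is read from it.

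**Figure D4:**
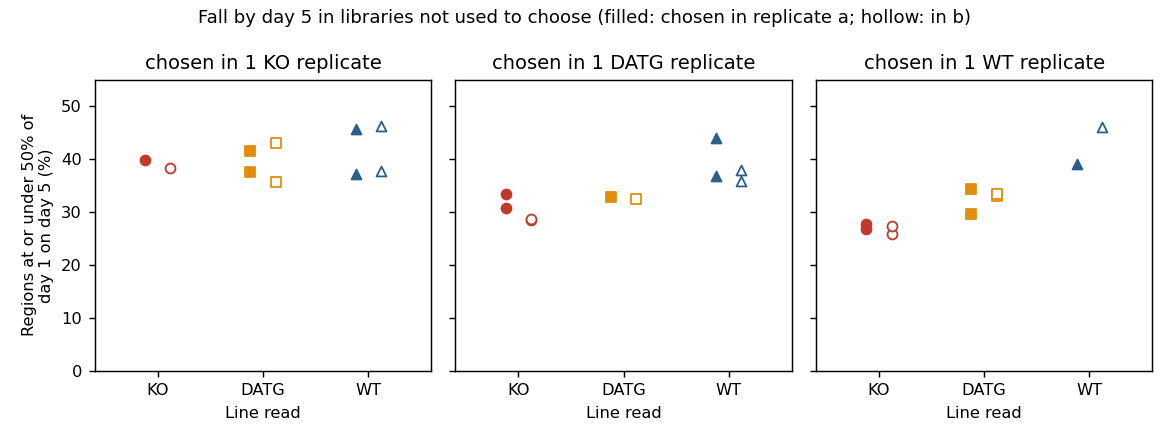
Percent of regions at or under 50% of day 1 on day 5 (vertical axis) in KO, DATG and WT replicates (horizontal axis), for regions chosen by the same rule in 1 replicate of KO, DATG or WT (panels); each point is 1 replicate that was not used to choose, filled when a chose and hollow when b chose. KO lies lowest for regions chosen in WT, at 25.8 to 27.8%, while KO and WT overlap for regions chosen in KO. All shares are on plain CPM.

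Levels on the middle days were compared between lines, since days 2 to 4 were not part of the rule. Averaged over these days, 964 members were higher and 174 lower in KO than in WT, with a median log2 difference of 0.16, where 5.75% of all regions were higher and 9.11% lower. In DATG 353 members were higher and 38 lower than in WT, with a median of 0.14, where 2.15% of all regions were higher and 3.1% lower. Of the other open regions, 5.13% were higher and 5.1% lower in KO than in WT, and 1.79 and 1.74% in DATG. The same WT libraries serve in both comparisons. The DATG count moved with single libraries, and members called numbered 149 without DATG day 2 b, 218 without DATG day 4 b, 196 without WT day 3 a and 224 without WT day 4 a, against 391 with all. For regions chosen in KO or in DATG the median KO difference from WT over these days was smaller, at 0.025 and 0.063 log2. It was 0.138 for those chosen in WT and 0.008 for all regions on the same TMM-scaled CPM. The median DATG difference from WT was also smaller there, at 0.049 and 0.073 log2, against 0.12 for regions chosen in WT and -0.006 for all regions.

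Day by day, the numbers in KO against WT were 90 higher and 62 lower on day 2, where 0.795% of all regions were higher and 1.4% lower. They were 248 and 42 on day 3, where 1.46 and 4.44% of all regions passed, and 173 and 11 on day 4, where 1.14 and 3.74% passed. In DATG against WT they were 3 higher and 2 lower on day 2 (0.0289 and 0.057% of all regions), 110 and 6 on day 3 (0.56 and 1.29%) and 16 and 2 on day 4 (0.138 and 0.557%). More members were higher than lower in KO on days 3 and 4 and in DATG on day 3. In the table as a whole more regions were lower than higher on each of these days. The other open regions were split more evenly in KO. There 0.746% were higher and 0.805% lower on day 2, 1.45 and 1.69% on day 3, and 0.941 and 1.9% on day 4. For DATG the shares of these regions were 0.434 and 0.646% on day 3 and 0.112 and 0.295% on day 4. The DATG counts on day 2 were near the share over all regions. So were the shares of members higher in KO on day 2 (1.17%) and in DATG on day 4 (0.207%). No direction is read from the KO counts of day 2 or the DATG counts of days 2 and 4.

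KO and DATG were also compared with each other. On day 5, 6 members were higher and 2 lower in KO than in DATG, where 0.136% of all regions were higher and 0.355% lower, and the count was 1 without KO day 5 a. For the change from day 1 to day 5, 0 members differed between KO and DATG by edgeR (0.0% of all regions) and 0 by DESeq2, while 422 had an unadjusted p under 0.05. The median difference in that change was 0.095 log2. With 0 calls over the whole table, the absence of calls among the members does not show that the lines changed alike.

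Among the genes of pluripotency, 37 members lay near 20 of the 40 genes listed, which was 12.3% of the open regions linked to them, against 7.55% over all linked open regions. The list was put together with earlier results of these data known. Of the 37, 23 fell in KO and 25 in DATG between days 1 and 5 and 0 rose in either. The medians were -0.90 and -0.99, against -0.67 and -0.77 over all linked members. Ribosomal protein genes, a list with no tie to these fates, had 12 members, of which 9 fell in KO and 10 in DATG. Their medians were -0.95 and -1.3, so nothing particular to the pluripotency list is read from its falls. Over days 2 to 4, 5 of the 37 were higher in KO than in WT, 4 in DATG, and 0 lower in either. Of all 5629 linked members, 671 were higher in KO and 245 in DATG. The KO count is near that share, and nothing about the list is read from it. Closing had happened by day 3 in WT at 15 of them.

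DPPA4 had 5 members, the start described above and 4 others. A region 882 bp from the gene's end (chr3:109325162-109325362) closed by day 2 and fell in KO (log2 -3.18 ± 0.33 SE, edgeR adjusted p = 4.57e-13) and in DATG (log2 -3.99 ± 0.41 SE, edgeR adjusted p = 2.58e-13). It held 9.96 and 8.46 CPM in KO on day 1, 2.67 and 3.30 on day 2, 0.93 and 1.87 on day 3, 4.27 and 3.37 on day 4 and 1.14 and 0.78 on day 5. In WT it held 8.34 and 7.59, 1.03 and 2.02, 1.08 and 0.80, 1.41 and 1.37, and 0.44 and 1.09 CPM. KO lay above WT on days 1, 2 and 4, the groups overlapped on days 3 and 5, and over days 2 to 4 both KO (log2 0.97 ± 0.24 SE, edgeR adjusted p = 0.0021) and DATG (log2 0.86 ± 0.24 SE, edgeR adjusted p = 0.0152) were higher than WT. The KO difference did not pass without KO day 3 b (log2 0.79). The DATG one did not pass by DESeq2 (log2 0.87) or without DATG day 2 a (log2 0.77), DATG day 3 b (log2 0.78) or WT day 2 a (log2 0.72).

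POU5F1, which encodes OCT4, had 2 members. The nearer one, 42 bp from the gene's end (chr6:31170624-31170824), fell in KO (log2 -1.15 ± 0.27 SE, edgeR adjusted p = 0.000909) and in DATG (log2 -1.07 ± 0.29 SE, edgeR adjusted p = 0.00366). It held 9.35 and 7.79 CPM in KO on day 1, 3.34 and 5.03 on day 2, 3.73 and 4.58 on day 3, 6.64 and 5.23 on day 4 and 3.28 and 4.17 on day 5, against 7.97 and 9.26, 4.87 and 4.77, 3.97 and 3.30, 2.35 and 4.41, and 2.04 and 3.82 CPM in WT. KO and WT were apart on day 4 alone. The region 10132 bp away (chr6:31180714-31180914) was higher in KO than in WT over days 2 to 4 (log2 0.43 ± 0.13 SE, edgeR adjusted p = 0.0132) and also fell in both mutant lines. The nearer region's fall in DATG did not pass by DESeq2 (log2 -1.04) or without DATG day 1 a (log2 -0.91) or DATG day 5 a (log2 -0.59). At the farther region the excess in KO did not pass by DESeq2 (log2 0.43) or without KO day 3 b (log2 0.36), KO day 4 a (log2 0.39) or WT day 3 a (log2 0.39), and its fall did not pass in KO by DESeq2 (log2 -0.73) or without KO day 1 b (log2 -0.53) or KO day 5 a (log2 -0.62), nor in DATG without DATG day 1 b (log2 -0.75) or DATG day 5 b (log2 -0.63).

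DNMT3B, a DNA methyltransferase of early embryonic cells, had a member that closed by day 2 and averaged 7.56 CPM on day 5 in KO, 6.89 in DATG and 6.37 in WT, against 18.1, 18.3 and 17.5 CPM on day 1. It fell in KO (log2 -1.20 ± 0.19 SE, edgeR adjusted p = 8.53e-07) and DATG (log2 -1.30 ± 0.21 SE, edgeR adjusted p = 5.52e-07). ZFP42, a zinc finger gene used as a stem cell marker, had 2 members: the one closing on day 3 fell in KO and DATG (log2 -1.51 and -1.03), while the one closing on day 4 averaged 4.37 CPM in KO and 3.51 in DATG on day 5, against 4.43 and 4.26 CPM on day 1. PRDM14, a repressor that supports pluripotency, had 2 members, of which the one 118 bp from the gene's end fell in KO (log2 -0.58) and DATG (log2 -0.56). Of these, the ZFP42 fall did not pass without KO day 1 b (log2 -1.14), DATG day 1 b (log2 -0.90) or DATG day 5 a (log2 -0.86), and the PRDM14 fall did not pass without KO day 1 a (log2 -0.39), KO day 5 b (log2 -0.51), DATG day 1 a (log2 -0.43) or DATG day 5 a (log2 -0.54). By DESeq2 the ZFP42 fall did not pass in DATG (log2 -1.02), nor the PRDM14 fall in KO (log2 -0.58) or DATG (log2 -0.57).

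The region linked to SOX2, 42440 bp from the end of the gene (chr3:181756776-181756976), took another course. SOX2 is the partner of OCT4 in pluripotent cells and stays on in neural progenitors. In KO it held 12.11 and 11.27 CPM on day 1, 11.03 and 12.50 on day 2, 11.19 and 10.69 on day 3, 11.62 and 10.70 on day 4 and 16.79 and 13.02 on day 5. In DATG it held 10.23 and 12.03, 7.91 and 13.48, 9.88 and 11.48, 10.59 and 10.56, and 10.33 and 14.93 CPM, and in WT 11.53 and 9.82, 7.97 and 9.54, 5.05 and 6.14, 7.05 and 6.38, and 5.24 and 4.04 CPM. On days 3, 4 and 5 both libraries of KO and both of DATG lay above both WT libraries. Over days 2 to 4 KO was higher than WT by 0.71 log2 (± 0.12 SE, edgeR adjusted p = 1.89e-06) and DATG by 0.62 (± 0.12 SE, edgeR adjusted p = 0.000191). Its change from day 1 to day 5 was 0.41 log2 in KO (edgeR adjusted p = 0.0953) and 0.19 in DATG (edgeR adjusted p = 0.523), neither of which passed.

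**Figure D5:**
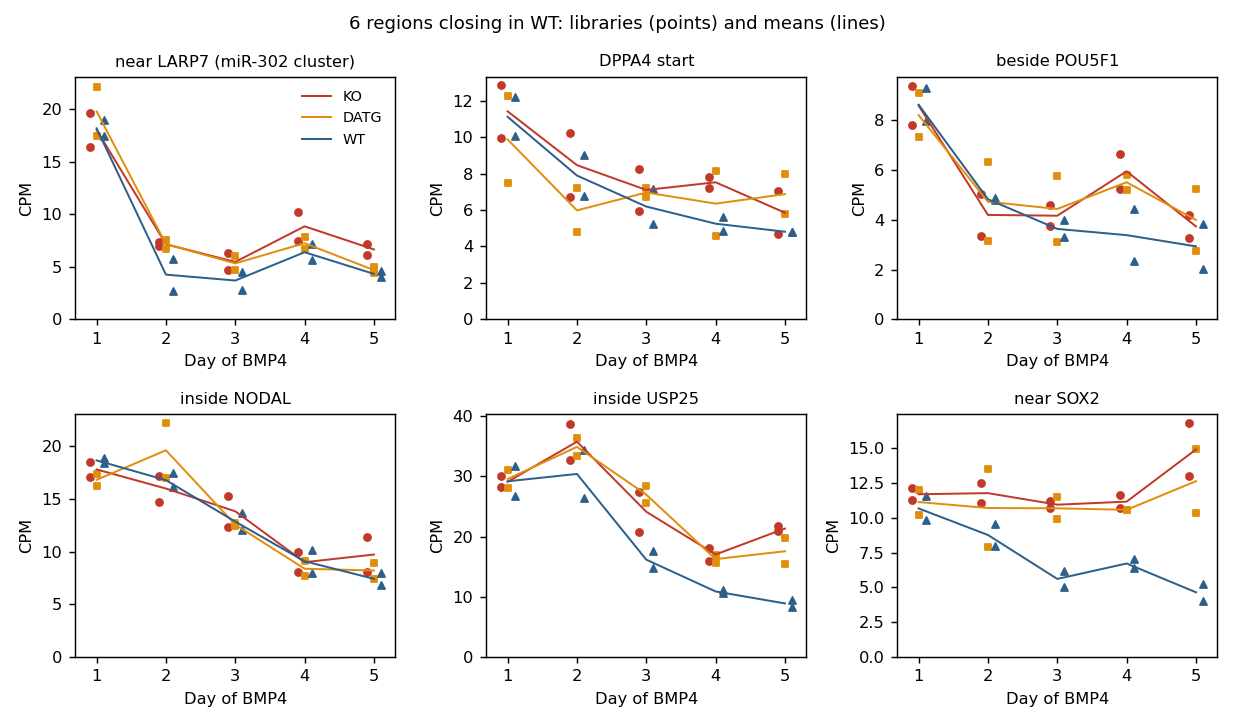
CPM (vertical axes, from 0) of 6 members over the days of BMP4 in KO, DATG and WT; points are single libraries and lines join the means of 2. The regions near LARP7, beside POU5F1 and inside NODAL run down in all 3 lines, while the region near SOX2 stays between 7.91 and 16.79 CPM in KO and DATG and ends at 5.24 and 4.04 CPM in WT.

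Among the genes of Nodal and Activin signalling, which holds pluripotency and patterns the primitive streak, 16 members lay near 8 of 22 genes. Of these, 9 fell in KO and 10 in DATG, and 1 was closed by day 3 in WT. Over all members 43.8% fell in KO and 48.7% in DATG, and over all regions 8.32 and 8.27%. Nothing about the list is read from its counts. The member inside NODAL, the ligand (chr10:70442561-70442761), held 18.54 and 17.08 CPM in KO on day 1, 17.22 and 14.75 on day 2, 12.38 and 15.28 on day 3, 9.96 and 8.02 on day 4 and 11.36 and 8.08 on day 5. In WT it held 18.93 and 18.41, 17.43 and 16.15, 12.06 and 13.65, 7.99 and 10.18, and 6.84 and 7.97 CPM. It fell in KO (log2 -0.81 ± 0.18 SE, edgeR adjusted p = 0.000334) and DATG (log2 -0.99 ± 0.20 SE, edgeR adjusted p = 5.27e-05), with KO and WT overlapping on days 2, 3 and 4 and apart on day 5 by 8.08 against 7.97 CPM. The second NODAL member stood at 5.38 CPM in KO and 4.83 in DATG on day 5, against 5.45 and 4.68 CPM on day 1.

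LEFTY1 and LEFTY2, secreted inhibitors of Nodal that are also its targets, had 3 members each. All 3 LEFTY2 members fell in both KO (log2 -2.37 to -1.01) and DATG (log2 -1.41 to -0.81), and they closed on day 4 or day 5 in WT. A pair of them lay side by side, 4448 and 4660 bp from the gene. Of the LEFTY1 members, 2 fell in KO and 2 in DATG, and only the one nearest the gene fell in both. In each of these genes some falls did not pass with 1 library left out: 1 LEFTY1 region in KO without KO day 1 a (log2 -0.50) or KO day 5 b (log2 -0.55), 1 LEFTY1 region in DATG without DATG day 5 b (log2 -0.75), 1 LEFTY2 region in DATG without DATG day 5 a (log2 -1.11), and another in DATG with any 1 of the 4 DATG libraries left out (log2 -1.07 to -0.68). By DESeq2 the first 2 of these falls and the last did not pass either (log2 -0.69, -1.09 and -0.83). FGF2, the growth factor that sustains these cells in culture, had 1 member, which closed by day 2 and fell in KO (log2 -1.75 ± 0.28 SE, edgeR adjusted p = 8.72e-07) and DATG (log2 -1.81 ± 0.31 SE, edgeR adjusted p = 4.69e-06). Over the FGF and ERK list, 9 members lay near 8 of 21 genes, with 3 lower in KO and 5 in DATG. Over the WNT list, 15 lay near 9 of 26 genes, with 7 lower in KO and 8 in DATG. Beside the 43.8% of all members that fell in KO and 48.7% in DATG, nothing about these 2 lists is read from the counts.

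The neuroectoderm list had 42 members near 28 of 37 genes, of which 8 fell in KO and 10 in DATG, with medians of -0.48 and -0.64. Over all members 43.8% fell in KO and 48.7% in DATG, with medians of -0.67 and -0.77, and over all regions 8.32 and 8.27% fell. Over days 2 to 4, 4 of the 42 were higher in KO than in WT, 2 in DATG and 0 lower. LHX5, a forebrain transcription factor, had a member that fell in DATG (log2 -0.73 ± 0.26 SE, edgeR adjusted p = 0.0348) and not past the threshold in KO (log2 -0.63 ± 0.26 SE, edgeR adjusted p = 0.0694). SOX3 and OTX2, regulators of the early neural plate, had 1 member each: that of SOX3 fell in KO (log2 -1.19) and not past the threshold in DATG (log2 -0.21), and that of OTX2 passed in neither. The LHX5 fall in DATG did not pass by DESeq2 (log2 -0.74) or with any 1 of the 4 DATG libraries left out (log2 -0.75 to -0.72).

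Near the targets of BMP itself lay 6 members, at 5 of 21 genes, with 1 lower in KO and 3 in DATG. They were 2.31% of the open regions linked to these genes, against 7.55% over all linked open regions. Amnion and trophoblast genes had 8 members (3.35%), HOX and CDX genes 4 (3.64%), neural crest and placode genes 8 (3.74%), endoderm genes 5 (3.94%) and epithelial genes 6 (4.29%). Lateral plate and cardiac genes had 18 (6.57%) and primitive streak genes 16 (6.96%), with 2 of the primitive streak members lower in KO and 6 in DATG. Endothelial and blood genes had 10 (11.0%), mesenchyme and fibroblast genes 9 (10.0%) and ribosomal protein genes, taken as a list with no tie to these fates, 12 (11.7%), with 9 of these lower in KO and 10 in DATG. The share of the pluripotency list is thus close to that of the ribosomal list. Over all members 43.8% fell in KO and 48.7% in DATG. Nothing particular to a list is drawn from these shares or from the numbers that fell.

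Neither member near EOMES, a T-box gene of the primitive streak, changed past the threshold in KO or DATG. The one at chr3:27730060-27730260 averaged 4.11 CPM in KO and 5.23 in DATG on day 5, against 4.37 and 4.53 CPM on day 1, and 2.97 CPM in WT on day 5, against 6.08 CPM on day 1. A region near TAL1, a blood transcription factor (chr1:47208530-47208730), was higher than in WT over days 2 to 4 in both KO (log2 0.60 ± 0.12 SE, edgeR adjusted p = 3.35e-05) and DATG (log2 0.49 ± 0.12 SE, edgeR adjusted p = 0.0034), the DATG difference not passing by DESeq2 (log2 0.49). MSX1, a BMP-responsive homeobox gene, had a member averaging 5.00 CPM in KO and 4.65 in DATG on day 5, against 3.22 and 5.09 CPM on day 1, neither change passing the test.

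Regions among those with the lowest ratio of day 5 to day 1 in WT also closed in KO and DATG. Near SSTR1 (chr14:38201887-38202087) the averages were 0.45 CPM in KO, 0.19 in DATG and 0.18 in WT on day 5, against 6.85, 6.31 and 6.27 CPM on day 1. The regions linked to WNK2, ABHD12B, ECHDC1 and EPSTI1 were also among the lowest, and in both mutant lines these 5 regions fell by at least 2.52 log2 with edgeR adjusted p-values of 1.83e-08 or less in KO and 7.34e-07 or less in DATG. All 5 had reached 50% by day 2 in WT.

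The members with the largest excess over WT on days 2 to 4 in KO, among those at or above the median day 1 level, lay near UBE2G1, SORL1, FNBP1L, PNLIPRP3, CAVIN3 and DPPA4, at 0.97 or 0.98 log2. Some were already higher on day 1, when KO averaged 13.22 CPM at CAVIN3, 8.45 at UBE2G1 and 9.21 at DPPA4, against 9.96, 7.05 and 7.96 CPM in WT. At SORL1, FNBP1L and PNLIPRP3 KO averaged 13.33, 6.05 and 6.03 CPM on that day, against 13.92, 6.61 and 5.98 CPM in WT. The region near SORL1, a sorting receptor (chr11:121406385-121406585), held 14.56 and 12.10 CPM in KO on day 1, 13.54 and 11.63 on day 2, 6.92 and 11.54 on day 3, 9.96 and 9.89 on day 4 and 11.11 and 9.77 on day 5. In WT it held 13.78 and 14.06, 6.05 and 5.69, 4.91 and 6.94, 4.23 and 4.25, and 4.08 and 4.15 CPM. KO and WT overlapped on days 1 and 3 and lay apart on days 2, 4 and 5. In DATG the same region was higher than in WT by 0.79 log2 (± 0.13 SE, edgeR adjusted p = 9.84e-06). The largest deficits in KO lay near DPY19L1 (log2 -1.28), C10orf90 (log2 -1.17) and KIFC3 (log2 -1.14), and those in DATG near PRR14L (log2 -1.09), NEK3 (log2 -1.03) and WNK2 (log2 -0.85). These regions were already lower on day 1, when KO averaged 2.76 CPM at DPY19L1, 6.25 at C10orf90 and 4.85 at KIFC3, against 5.59, 7.26 and 7.65 CPM in WT. DATG averaged 7.31 CPM at PRR14L, 6.49 at NEK3 and 4.21 at the WNK2 region on that day, against 18.07, 10.32 and 6.32 CPM in WT. The WNK2 difference did not pass by DESeq2 (log2 -0.89), and it also failed to pass with DATG day 2 b, DATG day 3 a, DATG day 3 b, DATG day 4 a or any WT library of days 2 to 4 but WT day 3 a left out (log2 -0.93 to -0.75).

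A few members rose on day 5 in a mutant line, named here after their values were seen. In KO the 7 were nearest to RBFOX1, TES, UHMK1, TSHZ2, TBC1D5, APC2 and ZFHX3, by 0.66 to 0.99 log2, and in DATG the 3 were nearest to DLG1, THBS2 and SND1, by 0.74 to 0.83 log2. The region nearest to TES, 108790 bp from the gene (chr7:116367473-116367673) held 12.75 and 9.25 CPM in KO on day 5, against 7.36 and 4.48 CPM on day 1, and 6.75 and 10.70 CPM in DATG on day 5, against 4.97 and 7.19 CPM on day 1. No member rose in both lines by the test. Each of the 10 failed to pass by DESeq2 or when 1 library of the line was left out: TES did not pass without KO day 1 b (log2 0.63) or KO day 5 a (log2 0.68), and the smallest value so reached was 0.30, at TSHZ2 without KO day 5 a.

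Most members overlapped a region called before treatment. In the day 0 table, which has its own regions, 5735 members (74.4%) overlapped one, against 67.8% of all regions and 88.3% of the other open ones. The remaining members have no day 0 value. At the overlapped ones the median level was 5.58 and 5.63 CPM in KO, 5.72 and 5.57 in DATG and 6.43 and 6.04 in WT, so that WT lay above both mutant lines before any BMP4. By edgeR 0 of 5726 overlapped regions were higher and 3 lower in KO than in WT, where 0.0855% of all day 0 regions passed in either direction, and 0 were higher and 33 lower in DATG than in WT, where 0.206% passed. DESeq2 called 0 and 1. Without WT a the counts were 1 for KO and 2 for DATG, and without WT b 10 and 55; without DATG a or b the DATG count was 10 or 12. WT was the line used to choose the members, and its place above the others at day 0 was not tested as a set.

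Many of the members also closed in WT cells under SMADi. Of the 7713, 6635 (86.0%) overlapped a region of the SMADi table. There the median level was 5.22 and 5.11 CPM on day 1, 3.42 and 3.49 on day 4 and 2.68 and 2.73 on day 5, and 3009 members (45.4%) were at or under 50% of day 1 on day 5. Of the 6632 SMADi regions overlapped, 3484 fell and 221 rose between days 1 and 5 (median log2 -0.79), where 17.1% of all SMADi regions fell and 23.9% rose. The 2 tables were made separately, and no level was tested across them.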

How the data were processed

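ATAC-seq libraries of H1 cells were read from 3 deposited tables (day 0, BMP4 and SMADi), whose values are the authors' whole-number counts per 201-bp region. MACS2 and GRCh38 are named in the submitters' processing notes. How reads were aligned, whether duplicates were removed and whether read ends were moved to the cut site is unknown here, and each step could change levels and the regions counted. Each table has its own regions, so nothing was tested across tables. The treatment of the BMP4 plates is described in the labels only in part.

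CPM was computed as the count times 1000000 over the table's column sum, and members were chosen on means of 2 libraries. Members and gene lists were chosen with earlier results of these data known. Tests used edgeR 4.0.16 in R 4.3.3 (TMM scaling, low-count filter, robust quasi-likelihood F test, 1 fit over the 15 groups of 2 BMP4 libraries, Benjamini-Hochberg adjustment over all regions). Each standard error was computed from the log2 change and its F value. The procedure was tested on simulated data. DESeq2 1.42.0, other scalings, no filter, a replicate block and leaving out each library were alternatives. Reading regions in libraries that had not chosen them, and choosing them in KO or DATG, were added after the data were seen. Replicate letters were checked for pairing: over 105 pairs of groups, the correlation of deviations from group means ran from -0.171 to 0.235 (median 0.034), with 27 above 0.1 and 15 below -0.1, so the letters were not taken to pair libraries.

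Regions were named by the nearest protein-coding gene with an end within 50 kb (RefSeq GRCh38.p14), beyond that only where stated. The text names regions by a set rule: the lowest WT ratios, the highest day 1 level per closing day, the largest called differences between lines, the highest changes within KO and DATG, the members near 25 pluripotency and early fate genes, and up to 4 genes per list. Members called between KO and DATG or called higher on day 5 were named after their values were seen. Not all regions that this rule names are reported here.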

Additional observations from a re-analysis of the deposited data

Results flagged for a closer look

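At 8 members KO and DATG differed on day 5 by edgeR's quasi-likelihood test adjusted over all regions, and they were named after their values were seen. These are 0.104% of the members, where 0.491% of all regions were called. The difference, KO minus DATG on the log2 scale, was -2.34 (± 0.32 SE, adjusted p = 5.32e-07) near ZNF273, 1.63 near RPP14, 1.38 near THBD, 1.17 near FBXW7, 0.94 near PRR14L, 0.93 near SLC39A8, 0.91 near SLC35C1 and -1.9 near STIL. Some of these stood apart from day 1: near ZNF273 the means were 1.47 CPM in KO, 7.66 in DATG and 2.24 in WT on day 5, and 1.28, 7.51 and 4.50 CPM in the same lines on day 1. Near THBD they were 5.19 CPM in KO, 2.13 in DATG and 1.89 in WT on day 5, and 7.38, 1.97 and 4.69 CPM on day 1. Others had closer means on day 1. Near SLC35C1 the means were 9.59 CPM in KO and 4.98 in DATG on day 5 and 9.12 and 10.63 CPM on day 1. Near FBXW7 they were 8.59 and 4.00 CPM on day 5 and 8.51 and 7.44 CPM on day 1. The change from day 1 to day 5 was called different between KO and DATG at 0 members. DESeq2 called 1 of the members, and without KO day 5 a edgeR called 1.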

How the results depend on the processing

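The counts of members called moved with the processing. DESeq2's Wald test called 1636 members between days 5 and 1 in KO and 1844 in DATG, against 3387 and 3758 by edgeR. Over days 2 to 4 it called 499 in KO against WT and 66 in DATG against WT, against 1138 and 391. Day by day from day 2 to day 4 it called 14, 24 and 12 in KO and 0, 2 and 0 in DATG, against 152, 290 and 184 in KO and 5, 116 and 18 in DATG. It called 1 member, lower in KO, in place of 8 between KO and DATG on day 5, 10 in place of 282 for WT day 3 against day 2, 6 in place of 94 for day 4 against day 3, and at day 0 it called 0 for KO and 1 for DATG. With 1 library left out, the counts ran from 2015 to 2434 for KO days 5 and 1, from 1724 to 3088 for DATG days 5 and 1, from 823 to 1106 for KO and 149 to 426 for DATG against WT over days 2 to 4, from 1 to 8 for KO against DATG on day 5, from 41 to 203 and 16 to 39 for the 2 WT steps, and from 1 to 10 for KO and 2 to 55 for DATG at day 0. Where this left 1 library in a group, that library was assumed to vary like the others. With the replicate block the counts were 3447 for KO, 3798 for DATG, 1158 and 402 against WT, and 21 in place of 33 for DATG at day 0; no other call count moved by over 1.5 times. Scaling by total counts kept the split among members, but over all regions it gave 13557 higher and 14444 lower for KO days 5 and 1, against 15887 and 11822, and 15583 higher and 15509 lower for DATG, against 18292 and 11745, and it moved the median of all SMADi regions by -0.103 log2. The number of members was 1373 with a day 1 minimum of 8 CPM, 437 with day 5 at 25% of day 1 or less, and 4737 on TMM-scaled CPM. The share closed by day 3 was 50.7% when later days were ignored, 86.2% with the midpoint between days 1 and 5 as the limit, 30% with a 2 CPM minimum, 28% with 8 CPM, 23.8% at 25%, and 28.8 and 27.3% with the rule in WT a or b alone, against 32.2%. The share at or under 50% on day 5 was 29.1% in KO with 8 CPM, 86.7% in KO and 86.5% in DATG at 25%, 34.7 and 40.3% on TMM-scaled CPM, 23.9 and 27.3% with the rule in WT a, and 23.7 and 29.7% with WT b, against 30.5 and 36.5%. Of 208 called differences at named regions, DESeq2 lost 76 and total-count scaling 4, and none changed sign under any alternative; the cause was not tested. With 2 libraries a group and levels of 4 CPM standing for as few as 16.1 counts, a member that did not pass may still have changed.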
